A study of Rattus norvegicus with 8 samples.

Results

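The genes described here mark the 2 cell types that build retinal capillaries, endothelial cells and the mural cells (pericytes and smooth muscle) wrapped around them. Of 10 listed genes, 8 were found among the 16633 genes measured, through 150 of the array's 213067 probe sets. A probe set belonged to a gene if the array annotation gave it that 1 symbol and no other. The endothelial genes were Vwf, Tek, Tie1, Cldn5 and Esam, and the mural genes were Pdgfrb, Cspg4 and Rgs5. No probe set carried the symbol Pecam1 or Acta2, and these 2 genes are not analysed here. The tested retinas came from male Brown Norway rats, 8 weeks old and wild type by the series title, taken 4 h after transcorneal electrical stimulation (TES), in which current passes through the eye from an electrode on the cornea. The other group was sham-treated rats of the same strain, sex and age, with tissue taken at the same time. Each group had 4 samples with 1 Affymetrix Rat Gene 1.0 ST array each, a 1-colour array with probe sets along the exons of a gene. Whether each array stands for a separate animal is not stated, so the tests below measure the spread between arrays, part of which may be technical.

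The inner retina is fed by capillaries whose endothelial cells are sealed by tight junctions, which form the inner blood-retina barrier. Pericytes cover these capillaries densely in the retina and are recruited when endothelial PDGF-B acts on the PDGF receptor beta of the pericyte. In the reverse direction, angiopoietin 1 from mural cells acts on the receptor Tie2, the product of Tek, and helps keep the vessel quiescent. Whole retina contains few vascular cells beside its many neurons.

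Every level below is a log2 GC-RMA signal, a background-corrected array signal on the log2 scale, and differences are given as TES minus sham on the same scale. The median signal per array lay between 5.32 and 5.41, and the correlation across genes between 2 arrays was 0.990 to 0.994, where genes do not count as independent replicates. The 1100 olfactory receptor genes of the array served as a guide to low signal, with a 95th percentile of 3.10 over genes and 3.21 over their probe sets. All 8 vascular genes had mean levels above 3.10. Of their 150 probe sets, 128 lay above 3.21.

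The stretches below are the 150 bases upstream of the annotated start of 4 vascular genes (RefSeq, build GRCr8), shown because these genes take part in the 3 pairs whose signals varied together from array to array. They are Tie1 (chr5:137304982-137305131, minus strand), Cldn5 (chr11:95718599-95718748, minus strand), Cspg4 (chr8:66160792-66160941, plus strand) and Rgs5 (chr13:84380927-84381076, plus strand), each written 5′ to 3′ on the strand of its gene. Esam and Pdgfrb, the partners of Tie1 and Rgs5 in these pairs, had no window in the RefSeq set used and are not shown. Capitals mark 3 motifs searched on both strands: GGAA, the core bound by ETS factors, GATAA, the core bound by GATA factors, and GGGCGG, the GC box.
Tie1: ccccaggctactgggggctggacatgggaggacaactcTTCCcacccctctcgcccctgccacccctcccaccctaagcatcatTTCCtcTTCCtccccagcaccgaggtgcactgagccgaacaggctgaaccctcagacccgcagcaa
Cldn5: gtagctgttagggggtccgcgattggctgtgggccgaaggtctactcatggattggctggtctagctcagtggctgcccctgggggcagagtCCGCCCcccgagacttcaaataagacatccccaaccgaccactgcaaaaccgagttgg
Cspg4: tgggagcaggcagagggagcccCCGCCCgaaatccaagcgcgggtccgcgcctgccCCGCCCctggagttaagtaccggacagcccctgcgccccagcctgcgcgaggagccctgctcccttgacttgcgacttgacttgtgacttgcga
Rgs5: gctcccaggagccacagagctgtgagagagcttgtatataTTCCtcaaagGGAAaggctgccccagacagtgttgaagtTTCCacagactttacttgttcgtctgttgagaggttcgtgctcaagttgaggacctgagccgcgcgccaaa
Tie1 and Rgs5 each held 3 GGAA cores and no GC box. Cldn5 held 1 GC box and Cspg4 held 2, with no GGAA core in either. None of the 4 held GATAA, and no matches overlapped. Of 33469 upstream windows of this length, 81.1% held GGAA, 26.0% held GGGCGG and 14.2% held GATAA. A match is a description of the letters and not of a bound site.

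No vascular gene differed between TES and sham beyond the spread between arrays. None of the 8 passed a limma adjusted p of 0.05 (Benjamini-Hochberg over all 16633 genes), where 0% of all genes passed. None reached an unadjusted p of 0.05 either, against 5.57% of all genes, and none met the thresholds named in the series text, which ask for a 1.2-fold change as well, against 3.59% of all genes. In none were the 2 groups free of overlap, against 3.31% of all genes. Of the 8, 6 lay lower after TES on average, a share to be read beside 54.9% of all genes, and their median difference was -0.06, against -0.01 over all genes. The same 6 of 8 count held with each array centred on its median, where 41.9% of all genes were lower, and after quantile normalization, where 49.8% were. It moved with single arrays and with the probe set chosen: 3 of 8 lay lower without TES 1 (55.6% of all genes), 8 of 8 without TES 4 (53.7%), and 4 of 8 with the brightest probe set per gene (49.5%). Each gene had its own 95% interval, from 0.732 to 1.03 fold for Cspg4 at the low end to 0.853 to 1.37 fold for Rgs5 at the high end. In bulk retina, fewer cells of a type and less RNA per cell cannot be told apart.

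**Figure D1:**
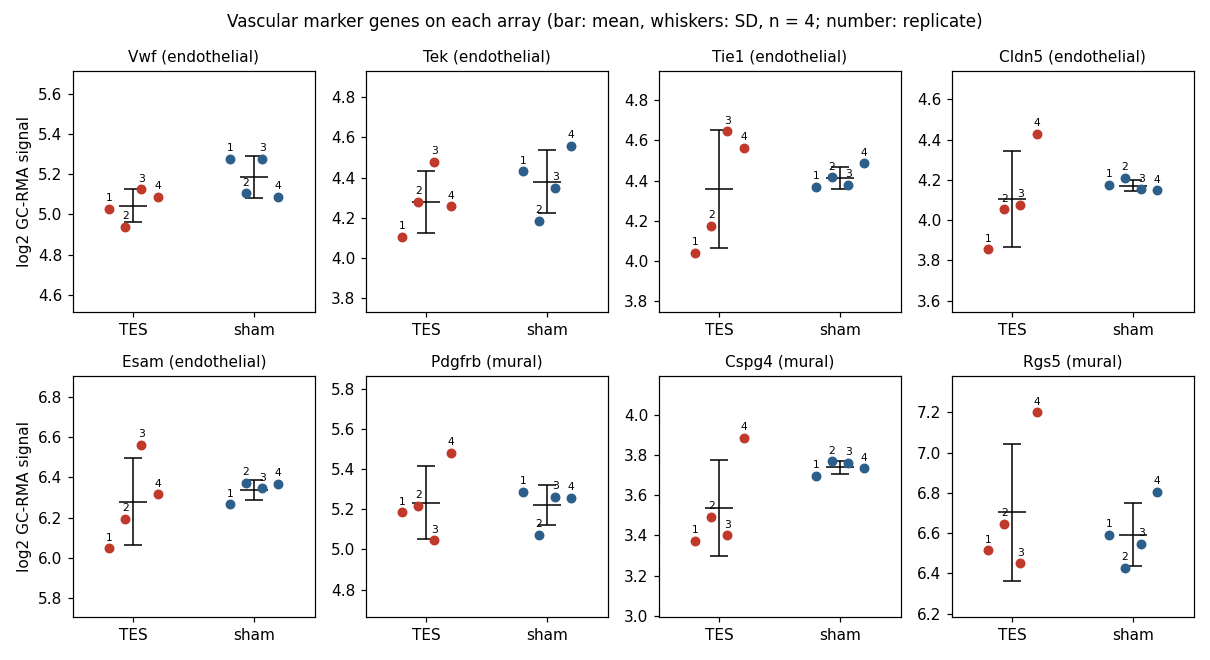
Log2 GC-RMA signal of the 8 vascular genes on the 4 TES arrays (red, left) and the 4 sham arrays (blue, right) of each panel, with the replicate number beside each point, the mean as a bar and the SD as whiskers. Each panel spans the same height, the groups overlap in all 8 panels, and TES points are spread wider than sham points for 6 genes.

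Among the endothelial genes, Vwf had the most probe sets, 58. It encodes von Willebrand factor, the clotting protein stored in endothelial granules. Vwf stood at 5.03, 4.94, 5.12 and 5.09 on TES arrays 1 to 4 and at 5.28, 5.10, 5.28 and 5.09 on sham arrays 1 to 4. TES 2 was the lowest array, and sham 1 and sham 3 lay above all TES arrays. The difference was -0.14 (95% interval -0.33 to 0.05), with a limma adjusted p of 0.920.

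Tek and Tie1 encode the 2 Tie receptor tyrosine kinases of endothelial cells: Tek binds the angiopoietins, and Tie1 is a partner receptor that modulates it. Tek stood at 4.11, 4.28, 4.48 and 4.26 on TES arrays and at 4.43, 4.18, 4.35 and 4.56 on sham arrays, a difference of -0.10 (95% interval -0.34 to 0.14). Tie1 stood at 4.04, 4.18, 4.65 and 4.56 on TES arrays, against 4.37, 4.42, 4.38 and 4.49 on sham arrays. TES 1 was the lowest array for both genes, while for Tie1 TES 3 and TES 4 lay above every sham array. The difference of Tie1 was -0.06 (95% interval -0.34 to 0.23), and it was 0.05 without TES 1.

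Cldn5, the main claudin of the endothelial tight junction, and Esam, an adhesion protein of the same cell contacts, completed the endothelial set. Cldn5 rests on 1 probe set and stood at 3.86, 4.05, 4.07 and 4.43 on TES arrays, against 4.18, 4.21, 4.15 and 4.15 on sham arrays. Its sham arrays lay close together, with 3 TES arrays below all of them and TES 4 above. Esam stood at 6.05, 6.19, 6.56 and 6.32 on TES arrays, against 6.27, 6.37, 6.35 and 6.37 on sham arrays. TES 1 was again the lowest array and TES 3 the highest. The differences were -0.07 for Cldn5 (95% interval -0.32 to 0.18) and -0.06 for Esam (95% interval -0.30 to 0.18), and without TES 1 they were 0.01 and 0.02.

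Of the mural genes, Cspg4 had the smallest p of the 8. It encodes the NG2 proteoglycan, which marks pericytes and also glial progenitors. Cspg4 stood at 3.37, 3.49, 3.40 and 3.88 on TES arrays, against 3.70, 3.77, 3.76 and 3.73 on sham arrays. TES 1, TES 2 and TES 3 lay below every sham array, and TES 4 lay above every one. The difference was -0.20 (95% interval -0.45 to 0.05), with a limma unadjusted p of 0.101 and an adjusted p of 0.909. Without TES 4 it was -0.32 and met the thresholds of the series text, as 3.72% of all genes did without that array, with an adjusted p of 0.896.

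Pdgfrb, the receptor that draws pericytes to endothelial PDGF-B, stood at 5.19, 5.22, 5.05 and 5.48 on TES arrays, against 5.29, 5.07, 5.26 and 5.26 on sham arrays. Its difference was 0.01 (95% interval -0.22 to 0.24), the smallest of the 8. Rgs5, a regulator of G protein signalling that marks pericytes, stood at 6.52, 6.65, 6.45 and 7.20 on TES arrays, against 6.59, 6.43, 6.55 and 6.81 on sham arrays. TES 4 was the highest array for both genes. The difference of Rgs5 was 0.11 (95% interval -0.23 to 0.45), and without TES 4 it was -0.06 for Rgs5 and -0.07 for Pdgfrb.

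**Figure D2:**
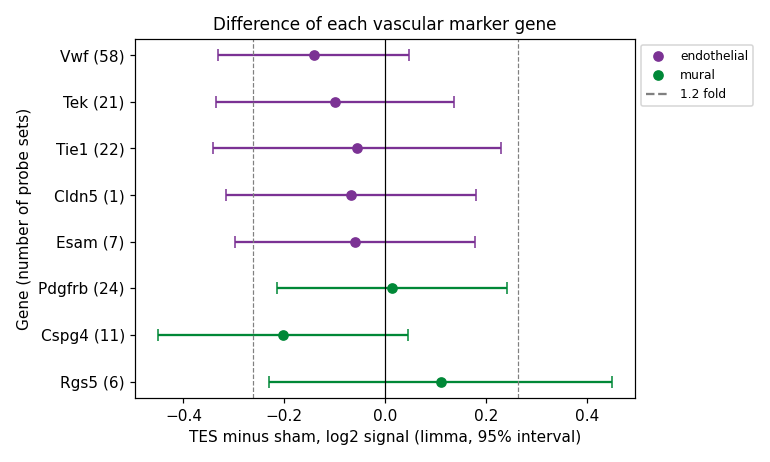
Difference in log2 signal, TES minus sham, of each vascular gene (endothelial in purple, mural in green) with its 95% interval from limma, 4 arrays per group, and the number of probe sets beside the name. All 8 intervals cross 0, from a lowest bound of -0.45 for Cspg4 to a highest of 0.45 for Rgs5, and dashed lines mark 1.2 fold.

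The difference of Rgs5 lay mainly in 1 dim probe set. Probe set 10765439 of Rgs5, with a mean level of 3.12, stood at 2.99, 2.95, 2.27 and 5.71 on TES arrays and at 2.39, 2.15, 2.58 and 3.89 on sham arrays. TES 4 stood far above the other TES arrays there, and sham 4 was the highest sham array. Its difference was 0.73, while the other 5 probe sets of Rgs5, all with mean levels of at least 5.65, differed by -0.08 to 0.08. With probe sets above the low-signal guide only, a choice made after seeing the data, the difference of Rgs5 was -0.01, that of Pdgfrb was -0.02, and all 8 genes lay lower after TES, beside 56.9% of all genes.

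Single probe sets were tested across all 213067 of the array, and none of the 150 passed an adjusted p of 0.05, where 0% of all did (smallest adjusted p among the 150, 0.954 in limma). At an unadjusted p of 0.05 there were 13 of 150 (8.67%), against 5.13% of all probe sets. Of the 150, 11 passed this p and lay lower after TES, against 2.8% of all 213067 probe sets. Another 2 of the 150 passed it and lay higher, against 2.33% of all probe sets. Among all 10921 probe sets that passed it, 5963 lay lower and 4958 higher. In 6 of the 13 the TES mean lay below the guide of 3.21, and in 1 of them the sham mean did too. Probe sets of 1 gene read the same RNA and are no replicates. The count moved with single arrays, to 7 (4.67%) without TES 4 and 15 (10%) without TES 1, where 5.13% and 5.68% of all probe sets passed. In a fit of only the probe sets with mean levels above the guide, it was 13 of 128 (10.2%), 12 of them lower. Of all such probe sets 4.8% passed. This is not the same set of 13, as 11 of its members were among the 13 called in the main fit. Of all 150, 82 lay lower after TES by any amount, beside 51.7% of all probe sets. Groups did not overlap in 4 of 150 (2.67%), against 2.82% of all probe sets.

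Vwf held 6 of the 13, with 4 lower and 2 higher. The differences of the 4 lower ones were -1.53 (probe set 10858897), -1.67 (10858941), -1.65 (10858915) and -1.41 (10858928). The 2 higher ones differed by 1.19 (10858938) and 0.77 (10858889). Probe sets 10858897 and 10858889 had mean levels of 3.11 and 2.64, below the guide of 3.21, so the sizes of their differences are not well measured. The others included 10858941 and 10858928, lower after TES, and 10858938, higher after TES, each with both group means above the guide. In 10858915 the TES mean was 3.18, below the guide. One further Vwf probe set, 10858904, had groups that did not overlap, at 6.42, 6.23, 6.47 and 6.54 on TES arrays against 6.71, 7.31, 6.70 and 6.62 on sham arrays (difference -0.42, unadjusted p 0.0534 in limma). Tie1 held 3 of the 13, all lower, with differences of -0.93 (10879280), -1.21 (10879281) and -0.84 (10879291), although 13 of its 22 probe sets lay higher after TES. The TES mean of 10879291 was 3.07, below the guide. Tek held 1, probe set 10869963, with a difference of -1.25.

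Cspg4 held 1 of the 13, probe set 10910247, whose groups did not overlap. It stood at 3.17, 2.06, 3.07 and 3.09 on TES arrays, against 3.55, 5.07, 3.71 and 3.77 on sham arrays, a difference of -1.18 (95% interval -2.08 to -0.28; limma adjusted p 0.954). All 4 TES values lay below the guide of 3.21, so neither the size of the difference nor the gap to the sham arrays is well measured. TES 2 was far below the other TES arrays and sham 2 far above the other sham arrays. Pdgfrb held 2, probe sets 10802044 and 10802055, with differences of -1.09 and -0.55. The TES mean of 10802044 was 3.10, below the guide. The groups of 10802055 did not overlap, with 6.26, 6.19, 5.30 and 6.13 on TES arrays against 6.55, 6.72, 6.42 and 6.39 on sham arrays. Nor did those of 10802063, where TES was higher, with 6.77, 6.63, 6.42 and 6.50 against 6.07, 6.38, 6.24 and 6.39 (difference 0.31). Esam, Rgs5 and Cldn5 held none of the 13.

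**Figure D3:**
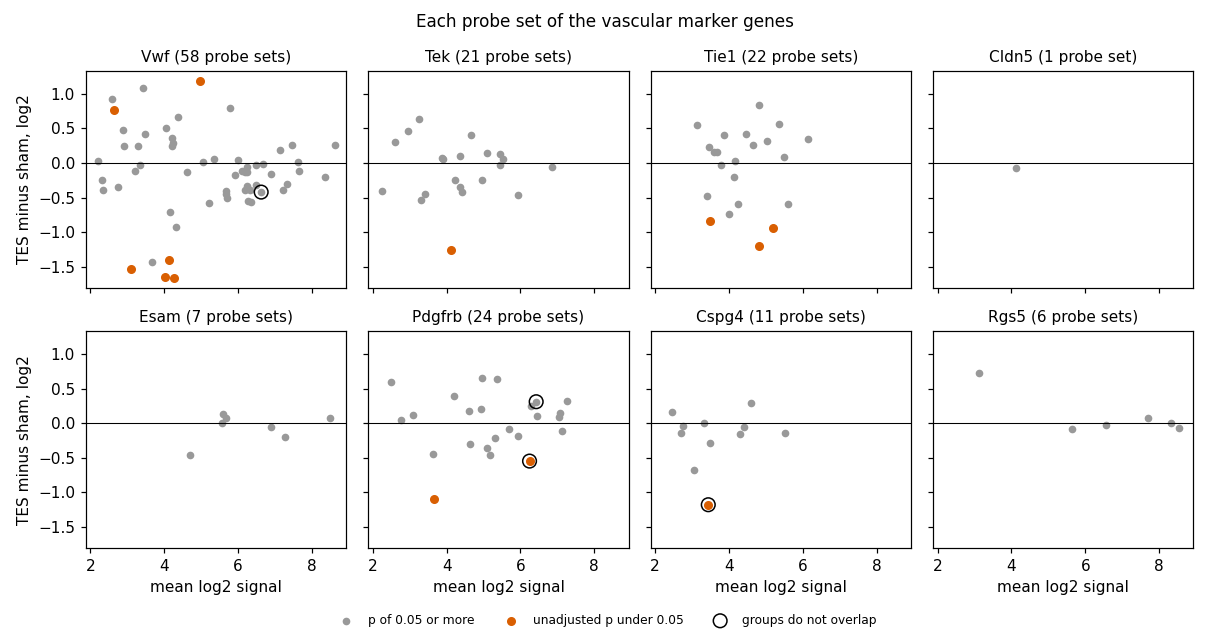
Difference in log2 signal, TES minus sham, of each of the 150 probe sets (vertical axis) against its mean log2 signal over 8 arrays (horizontal axis), 1 panel per gene. Orange points mark the 13 with an unadjusted p under 0.05, 11 of them below 0, and circles mark the 4 whose groups do not overlap.

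Most of the 8 vascular genes varied more between TES arrays than between sham arrays. The SD over 4 arrays was larger in TES for 6 of 8 genes, against 49.3% of all genes, and the exceptions were Vwf and Tek. The median SD of the 8 genes was 0.227 over TES arrays and 0.0762 over sham arrays, while over all genes it was 0.141 and 0.143. Cspg4 had an SD of 0.237 over TES arrays and 0.0322 over sham arrays, and Cldn5 had 0.239 and 0.0283. TES 1 was the lowest TES array for 5 of the 8 genes, and TES 4 the highest for 4. Without TES 4 the median SD over TES arrays was 0.111, and 5 of 8 genes still had the larger SD in TES, against 42.3% of all genes. With a median probe set standing for each gene, the median SDs were 0.197 and 0.143 (larger in TES for 5 of 8), and with the brightest probe set 0.334 and 0.176 (8 of 8). This measure was chosen after seeing the data, no test was made of it, and over other markers of the same cells TES had the larger SD for 13 of 27 endothelial and 12 of 22 mural genes. The median SD of those endothelial markers was 0.161 over TES and 0.200 over sham arrays. Lists of other genes, described below, went both ways. TES had the larger SD for 12 of 16 genes of retinal neurons and glia, 11 of 15 of pigment epithelium and 9 of 10 of connective tissue. It did so for 8 of 21 barrier genes, 7 of 19 endothelial activation genes and 4 of 12 microglia and leukocyte genes.

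**Figure D4:**
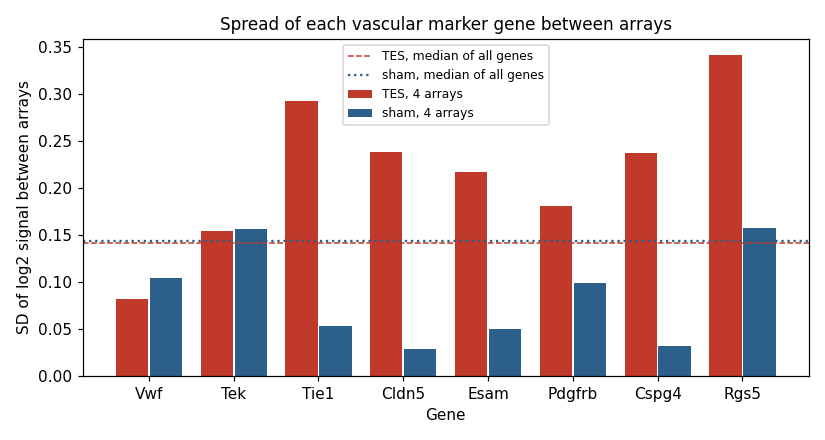
SD of log2 signal over the 4 TES arrays (red) and the 4 sham arrays (blue) for each vascular gene, with dashed and dotted lines at the medians of all 16633 genes (0.141 for TES and 0.143 for sham). TES bars are taller for 6 genes, and Cldn5 and Cspg4 have the shortest sham bars.

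Over the 8 arrays, 3 of the 28 pairs of vascular genes were correlated at an adjusted p of 0.05 by Pearson's r (exact two-sided permutation test, Benjamini-Hochberg over 28 pairs). Tie1 and Esam gave r = 0.92 (exact p 0.00156, adjusted 0.0218), Pdgfrb and Rgs5 gave r = 0.89 (exact p 0.00233, adjusted 0.0218), and Cldn5 and Cspg4 gave r = 0.88 (exact p 0.00062, adjusted 0.0174). Spearman's rho was 0.83 (exact p 0.0154), 0.79 (exact p 0.0279) and 0.90 (exact p 0.00456) in the same order, and no rho passed adjustment (0.215, 0.261 and 0.128). Without the 2 arrays farthest from the median of the first gene, r was 0.74 for Tie1 and Esam (without TES 1 and TES 3), 0.65 for Pdgfrb and Rgs5 (without TES 3 and TES 4) and 0.89 for Cldn5 and Cspg4 (without TES 1 and TES 4). For Cldn5 and Cspg4, the 2 TES arrays left lay below all sham arrays in both genes. That r therefore also holds the distance between the groups. Within the TES arrays alone r was 0.93, 0.97 and 0.94 in the same order of pairs, and within the sham arrays alone 0.66, 0.65 and 0.26. The first 2 pairs share a cell type, endothelial and mural, and the third crosses them. All genes of a pair were read on the same arrays.

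The median r was 0.41 over the 10 endothelial pairs, 0.60 over the 3 mural pairs and 0.12 over the 15 pairs that cross, and 25 of 28 pairs had r above 0. Among the 16632 other genes, Esam ranked 14 by r with Tie1, Rgs5 ranked 30 by r with Pdgfrb, and Cspg4 ranked 56 by r with Cldn5. None of the 3 pairs passed when the median probe set or the brightest probe set stood for the gene, nor without TES 1. With probe sets above the low-signal guide only, Tie1 and Esam alone passed (r = 0.93, exact permutation adjusted p 0.0403). Without TES 4, 1 pair passed.

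**Figure D5:**
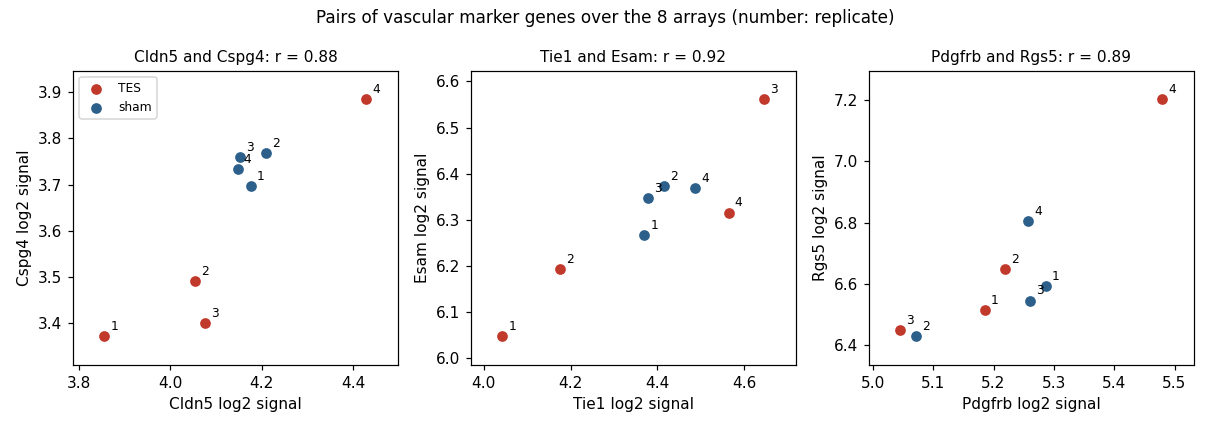
Log2 signals of the 3 pairs of vascular genes correlated at an adjusted p of 0.05, 1 point per array (TES red, sham blue, replicate number beside it). In each panel TES arrays hold both ends or nearly so: TES 1 lies lowest for Cldn5 with Cspg4 and for Tie1 with Esam, and TES 4 lies highest for Cldn5 with Cspg4 and for Pdgfrb with Rgs5.

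The genes most like the vascular sets over the 8 arrays were not on the marker lists used here, and whether vessel cells express them was not examined. Among 12495 genes above the low-signal guide, those of highest r with the mean of the 5 endothelial genes were Trim47 (r = 0.97), Adrb1 (0.96), Dnal4 (0.95), Cox6a1 (0.95) and Slc6a8 (0.94). With the mean of the 3 mural genes they were Rangrf (0.97), Cbs (0.96), Cdk2ap2 (0.95), Wdr62 (0.94) and Rhbdf2 (0.94). These values rank many genes over 8 arrays, are given as a description, and depended on the probe set that stood for the gene. With the median probe set, r lay between 0.21 (Trim47) and 0.78 (Dnal4) for the 5 genes named beside the endothelial mean and between 0.13 (Rangrf) and 0.86 (Cbs) for the 5 named beside the mural mean. With the brightest probe set the ranges were -0.17 (Dnal4) to 0.69 (Cox6a1) and -0.43 (Cbs) to 0.79 (Wdr62). With probe sets above the guide they were 0.85 (Trim47) to 0.96 (Dnal4) and 0.12 (Cbs) to 0.72 (Rhbdf2). The 26 other endothelial markers above the guide had a median r of 0.13 with the endothelial mean, against 0.06 over all 12495 genes, led by Icam2 (0.67) and Flt1 (0.63). The 19 other mural markers had a median r of 0.01 with the mural mean, against -0.03 over all, led by Smtn (0.79) and Abcc9 (0.77).

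Further markers of the same cells were read from longer lists, and no gene on them passed an adjusted p of 0.05 in limma. Of 27 other endothelial markers, 13 were higher and 14 lower (median difference -7.83e-05), and 1 in each direction had an unadjusted p under 0.05, beside 5.57% of all genes. Mmrn2, an endothelial matrix protein gene, averaged 3.40 ± 0.16 after TES and 3.70 ± 0.11 after sham (SD, n = 4 each), and Fli1, an ETS factor gene, averaged 3.61 ± 0.10 and 3.40 ± 0.10, with 4 TES arrays above all sham arrays. Of 22 other mural markers, 5 were higher and 17 lower (median -0.07), with 0 at an unadjusted p of 0.05. Of all genes, 54.9% were lower. The lower markers numbered 14 with each array centred on its median (41.9% of all genes) and 15 after quantile normalization (49.8%). The 2 of smallest p were Des, which encodes desmin (difference -0.26), and Myh11, the smooth muscle myosin gene (-0.14). Des ranged from -0.36 to -0.09 when single arrays were left out. With probe sets above the guide only, Myh11 differed by -0.0071. The median over all genes was -0.01, and the lists are set beside it without a test. Medians near 0 turned sign with the scaling: with each array centred on its median, those of other endothelial markers, barrier genes, fenestrated endothelium, actin, RGS and connective tissue genes, and neurons and glia lay above 0, and after quantile normalization those of other endothelial markers, fenestrated endothelium, claudin and connective tissue genes, and neurons and glia lay above 0 and that of striated muscle below it.

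Of 21 inner blood-retina barrier genes, 9 were higher and 12 lower (median -0.01). Ocln, which encodes the tight junction protein occludin, stood at 3.18, 3.08, 2.91 and 2.94 on TES arrays and at 3.49, 3.30, 3.24 and 3.24 on sham arrays, so the groups did not overlap. Its difference was -0.29 (95% interval -0.50 to -0.08; limma adjusted p 0.823), at a mean level of 3.17, close to the low-signal guide. The TES mean was 3.03, below the guide of 3.10, so neither the size of the difference nor the gap to the sham arrays is well measured. F11r, the gene of junctional adhesion molecule A, differed by 0.40 (95% interval -0.08 to 0.88). Of the 12 ligands and partners of the Tie and PDGF receptors, 5 were higher and 7 lower (median -0.04). Ptprb, the endothelial phosphatase that acts on Tie2, differed by -0.19 and the ligand gene Pdgfd by -0.17, and neither had an unadjusted p under 0.05.

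Of 19 endothelial activation genes, 7 were higher and 12 lower (median -0.08), with 2 lower at an unadjusted p of 0.05, beside 5.57% of all genes. Edn1, which encodes the vasoconstrictor endothelin 1, stood at 3.43, 3.59, 3.65 and 3.60 on TES arrays and at 3.70, 4.27, 3.86 and 3.96 on sham arrays. All 4 TES arrays lay below all sham arrays, with a difference of -0.38 (95% interval -0.64 to -0.12) and a limma adjusted p of 0.823. The chemokine gene Cxcl12 differed by -0.25. Markers of fenestrated and choroidal endothelium were higher in 5 of 11 (median -0.01), with differences of 0.22 for Plvap, the diaphragm protein of fenestrae, and 0.19 for the E-selectin gene Sele, neither at an unadjusted p under 0.05. Sele, Selp, Vcam1 and Icam1 stand on the activation list too, so the counts of these 2 lists are not separate.

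Paralogs of the vascular genes gave the following counts. Claudin genes other than Cldn5 were higher in 7 of 17 (median -0.04), with -0.48 for Cldn6, which rests on 1 probe set, and -0.26 for Cldn7. RGS genes other than Rgs5 were higher in 7 of 18 (median -0.03). Rgs1 differed by -0.30 at a mean level of 2.19, below the guide, and Rgs2 by -0.16. Actin genes other than Acta2 were higher in 2 of 5 (median -0.03), with 0.19 for Actc1 and -0.10 for Actg1.

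Other cell types that dissected retina can hold were checked by their markers. Pigment epithelium genes were lower after TES in 11 of 15 (median -0.23), 5 of them at an unadjusted p under 0.05, beside 5.57% of all genes: Rpe65 (-0.50), Rdh5 (-0.50), Rgr (-0.48), Ttr (-0.47) and Krt8 (-0.34). Their mean level ran from 5.09 to 5.61 over TES arrays and from 5.36 to 5.60 over sham arrays, and Best1 and Tyr lay at or below the guide. The 13 others had a median r of 0.03 with the endothelial mean and -0.30 with the mural mean. Lens genes were higher in 8 of 10 (median 0.45). Those of smallest p were the lens water channel gene Mip (0.48) and the crystallin gene Crygc (0.43), the second of them among the 4 of 10 at or below the guide. The lens list had mean levels from 3.76 to 5.16 over TES arrays and from 3.41 to 4.65 over sham arrays. Erythrocyte genes were higher in 7 of 7 (median 0.26), with Hemgn (0.32) and Eraf (0.26) of smallest p, 5 of the 7 at or below the guide, and mean levels from 4.09 to 4.28 over TES arrays and from 3.67 to 4.23 over sham arrays. The part of these tissues in the vascular values was not tested.

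The remaining lists had medians closer to 0. Microglia and leukocyte genes were lower in 10 of 12 (median -0.07), beside 54.9% of all genes. The count was 7 of 12 with each array centred on its median (41.9% of all genes) and 10 of 12 after quantile normalization (49.8%). Those of smallest p were the P-selectin ligand gene Selplg (-0.43), where TES lay below sham without overlap, and Cd14 (-0.57), at a mean level of 2.92, below the guide. Connective tissue genes were higher in 5 of 10 (median -0.01), with 0.33 for Dcn and 0.16 for Lum, which lay below the guide. Astrocyte genes were higher in 3 of 7 (median -0.05), with -0.40 for Gja1 and 0.06 for Pax2. Striated muscle genes were higher in 6 of 10 (median 0.02), with 0.14 for Myh2 and -0.10 for Acta1. Markers of retinal neurons and glia were lower in 10 of 16, but in 5 of 16 with each array centred on its median and in 8 of 16 after quantile normalization, with a median of -0.0042, differences of -0.14 for Slc17a6 and -0.15 for Pcp2, and mean levels from 8.97 to 9.13 over TES arrays and from 9.02 to 9.13 over sham arrays.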

How the data were processed

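The table deposited by the authors holds a log2 GC-RMA signal per probe set and array. Per the series text the signals were made in GeneSpring GX, and the submitters' processing notes name GCRMA. The log base was read from the values, and no source used here states how arrays were normalized to each other. The array annotation names exactly 1 gene for 81.2% of probe sets, several for 1661 and none for 38482. Probe sets of 1 gene were averaged per array, with no filter. TES was compared with sham in limma 3.58.1 (R 4.3.3; lmFit, eBayes) without covariate, over all genes and over all probe sets, with Benjamini-Hochberg adjustment. The procedure was tested on simulated data, with 50 genes changed at each fold and independent normal noise. The simulated data held 200 changed genes at once, at 1.2-, 1.5-, 2- and 3-fold. An adjusted p of 0.05 called 4% of those changed 1.2-fold, 62% at 1.5-fold, 92% at 2-fold and 98% at 3-fold. The adjustment depends on how many genes change, and in the measured data no gene passed. These shares therefore need not hold for a gene that changes alone. List symbols not in the annotation were matched through RefSeq synonyms (GRCr8, 4 symbols). Named genes were all 8 measured members and their probe sets at an unadjusted p of 0.05 or without overlap, and from each list the 2 genes of smallest p and any at the thresholds of the series text. The members and lists were chosen with earlier results of these data known. No scanner files were used, so signal over background per probe is not known, and the number of arrays limits the precision. Coordinates are those of the RefSeq promoter table. Alternatives covered the probe set standing for a gene, scaling, a low-signal filter, the replicate number as a block, other variance estimates and leaving out each array.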

Additional observations from a re-analysis of the deposited data

Results flagged for a closer look

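Each array was compared with the 3 others of its group, and a value is given here where its gap to the nearest array took up more of the range of the 4 than the 95% critical value of Dixon's test. This held in 6 of 124 groups of 4 arrays, and chance alone gives about 1 in 20. For the gene Pdgfrb, sham 2 stood at 5.07 with the next sham array at 5.26, a ratio of 0.861. For probe set 10858904 of Vwf, sham 2 stood at 7.31 with the next at 6.71, a ratio of 0.871. For probe set 10802055 of Pdgfrb, TES 3 stood at 5.30 with the next TES array at 6.13, a ratio of 0.867. Probe set 10910247 of Cspg4 stood apart in both groups: TES 2 was at 2.06 with the next TES array at 3.07 (ratio 0.916), and sham 2 was at 5.07 with the next sham array at 3.77 (ratio 0.857). For Rdh5 of the pigment epithelium list, TES 2 stood at 5.31 with the next TES array at 4.57, a ratio of 0.834.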

How the results depend on the processing

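No alternative brought a vascular gene or any of the 16633 genes past the adjusted threshold, including the replicate block, trend and robust variance, quantile normalization and the unmoderated equal-variance test. Vascular genes meeting the thresholds of the series text numbered 0 in every alternative but 1, and 0 to 1 when single arrays were left out, the 1 being Cspg4 without TES 4. The median difference over the vascular genes ran from -0.15 to 0.02 when single arrays were left out, and was above 0 without TES 1. All genes at those thresholds numbered 850 with the median probe set, 805 with the brightest one, 348 with the unmoderated test and 678 with the replicate block, against 597. Same-numbered arrays are not paired by the labels: their deviations correlated at 0.124, 0.132, 0.0056 and -0.119 for numbers 1 to 4, and 4 of 8 arrays correlated best with their own number. The replicate block gave 0 vascular genes past the adjusted threshold. It gave 14 of 150 probe sets at an unadjusted p of 0.05 (9.33%), against 5.49% of all probe sets, and 10 of the 14 were also called without the block. With single arrays left out, the probe sets of vascular genes at an unadjusted p of 0.05 ranged from 7 to 15, and 0 passed adjustment. The count of correlated pairs was 0 with the median probe set, 0 with the brightest probe set, 1 with probe sets above the low-signal guide (chosen after seeing the data) and 0 to 3 when single arrays were left out.

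Signs turned as follows, all for differences that never passed adjustment. With the median probe set they were 0.00077 for Esam, -0.0461 for Pdgfrb, -0.0112 for Fli1 and -0.0133 for Pax2. With the brightest probe set they were 0.261 for Vwf, 0.347 for Tie1, 0.0762 for Esam, -0.063 for Rgs5, -0.168 for Sele, 0.115 for Cxcl12, -0.0601 for Actc1, 0.0144 for Actg1, 0.0493 for Cldn7 and 0.121 for Acta1, and r turned to -0.17 for Dnal4, -0.43 for Cbs and -0.24 for Rhbdf2. With probe sets above the guide they were -0.0215 for Pdgfrb and -0.014 for Rgs5. When single arrays were left out, the differences ranged from -0.152 to 0.0494 for Tie1, -0.177 to 0.0147 for Cldn5, -0.154 to 0.0178 for Esam, -0.0696 to 0.075 for Pdgfrb and -0.0559 to 0.195 for Rgs5. The cause was not tested.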
